A study of Rattus norvegicus with 12 samples.

Results

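The regulators described here are 5 genes that sit above the ion transporters of the choroid plexus: AHCYL1 (IRBIT) and AHCYL2 (long-IRBIT) of the IRBIT family, the kinase WNK1, and the kinases STK39 (SPAK) and OXSR1 (OSR1) downstream of it. They were chosen by name, and all 5 could be paired with an Ensembl identifier, out of 32883 genes measured. AHCYL1 (ENSRNOG00000018569), AHCYL2 (ENSRNOG00000039300) and STK39 (ENSRNOG00000024808) were paired through the study's table of expressed genes, which is ordered by level. WNK1 (ENSRNOG00000009956) and OXSR1 (ENSRNOG00000013136) were paired only through the table of genes that the study itself called different between the phases, so a difference between the phases in these 2 genes is no independent result.

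The choroid plexus was taken from 12 male Sprague-Dawley rats aged 9 weeks, with 1 library per rat. Of these, 6 were sampled in the light phase at zeitgeber time 8 h (ZT8) and 6 in the dark phase at zeitgeber time 20 h (ZT20), so that each phase is 1 time of day. The rats of both phases were anesthetized with xylazine and ketamine, and the dark-phase rats were handled in darkness with occasional red light. RNA was extracted from whole tissue, so that values in TPM, the length-normalized share of all transcripts, sum over all cell types of the plexus. Fewer cells of a type and less RNA per cell cannot be told apart in such samples.

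IRBIT binds the inositol trisphosphate receptor on the endoplasmic reticulum and is released when inositol trisphosphate rises. Once free, it binds and activates sodium bicarbonate cotransporters and other ion transporters of secretory epithelia. WNK kinases sense chloride and cell volume and activate SPAK and OSR1, which in turn phosphorylate the cation-chloride cotransporters, activating NKCC1 and inhibiting the KCC family. IRBIT is known to oppose WNK and SPAK on some of these transporters. NKCC1 is implicated in the secretion of cerebrospinal fluid, and bicarbonate cotransporters are among the transporters of the choroid plexus.

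The sequences upstream of the 2 members with the largest phase difference, AHCYL2 and WNK1, are shown because both genes were higher in the dark phase. Each is the 250 bases before the gene start used for its RefSeq promoter in build GRCr8, with matches to the GC box GGGCGG on either strand in capitals. AHCYL2 lies at chr4:59348497-59348746 on the plus strand and WNK1 at chr4:154926148-154926397 on the minus strand.
AHCYL2: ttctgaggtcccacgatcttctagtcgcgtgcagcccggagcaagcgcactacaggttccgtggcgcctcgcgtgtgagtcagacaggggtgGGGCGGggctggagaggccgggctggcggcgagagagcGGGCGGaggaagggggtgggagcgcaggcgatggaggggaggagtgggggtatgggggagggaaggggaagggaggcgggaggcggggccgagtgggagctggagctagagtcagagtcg
WNK1: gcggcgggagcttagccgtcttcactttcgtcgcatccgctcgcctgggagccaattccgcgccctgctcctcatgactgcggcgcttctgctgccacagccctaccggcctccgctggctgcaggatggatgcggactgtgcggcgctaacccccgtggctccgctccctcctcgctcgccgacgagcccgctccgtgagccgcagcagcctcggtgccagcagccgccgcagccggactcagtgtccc

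Both windows are rich in G and C (70.0% in AHCYL2 and 70.8% in WNK1), and AHCYL2 held 2 GC boxes where WNK1 held 0. STK39 held 1, and AHCYL1 and OXSR1 held 0. A GC box was found in 30.5% of all 33469 windows of this length. Letters bound by clock factors were searched on both strands in all 5 members. The E-box CACGTG (5.59% of all windows), its variant CACGTT (4.07%) and the D-box TTATGTAA or TTACGTAA (0.932%) were found in 0 of the 5. The half-site AGGTCA of ROR and REV-ERB receptors (14.1% of windows) was found in AHCYL1, and the cAMP response element TGACGTCA (1.59%) in OXSR1. These 2 matches are shown in capitals, AHCYL1 at chr2:198016170-198016197 and OXSR1 at chr8:127939805-127939834, both on the minus strand.
AHCYL1: agaggccgctcTGACCTcgcttttcttt
OXSR1: ccccggcgtggTGACGTCAgcgcgctgcgt

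The AHCYL1 match reads on the opposite strand. The windows of AHCYL1, STK39 and OXSR1 overlap the annotated RefSeq span of the same gene, whereas those of AHCYL2 and WNK1 do not. A match describes these letters only, and its absence says nothing of a factor acting elsewhere.

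The libraries were alike in most measures. Transthyretin (TTR), the thyroid hormone carrier that the epithelium secretes, took 25.4 to 31.0% of all TPM, and KCNJ13, the epithelial potassium channel Kir7.1, had 906 to 1212 TPM, so the tissue carried its defining markers. Light-phase replicate 2 stood apart, with TTR at its lowest (25.4%), hemoglobin HBB at 5535 TPM against at most 2190 TPM in the dark phase, and the summed smooth muscle and pericyte markers TAGLN and RGS5 at 420 TPM. Total FPKM divided by total TPM reflects the lengths of the transcripts that took the reads. This ratio was 0.953 to 0.987 at ZT8 and 0.934 to 0.960 at ZT20. The ranges overlapped, and the phase means differed (two-sided exact permutation test, p = 0.00433). When limma was adjusted for this ratio it called 345 genes in place of 2204. Since the ratio itself differed between the phases, this fit cannot separate it from phase and estimates phase less precisely. The standard error of the AHCYL1 log2 fold change was 0.095 in this fit and 0.058 without the ratio. The part of the ratio in the values below was not tested otherwise. Without further scaling and with TTR left out of TPM, the calls split into 1456 toward dark and 737 toward light, against 1191 and 1013 with the scaling used here.

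Expression of the 5 genes at ZT8 and ZT20 was compared first. AHCYL2, AHCYL1 and WNK1 were higher in the dark phase, by 44.8, 23.7 and 32.7% of their light-phase means. OXSR1 was 11.2% and STK39 3.35% higher, and neither passed the test. The 3 called members are 3 of 5, where limma called 9.52% of 12513 tested genes in this direction, and 17.6% in either direction, at an FDR below 0.05. In the same 3 genes every ZT20 library exceeded every ZT8 library, as in 5.12% of the tested genes. WNK1 and OXSR1 were paired only as genes the study called, so these counts are not independent of the pairing. Of the 3 members paired by level (AHCYL1, AHCYL2 and STK39), 2 were called, where 9.86% of the 1703 genes averaging at least 60 TPM were called higher in the dark phase. The members were chosen with earlier results of these data known, so this count is no independent result either.

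**Figure D1:**
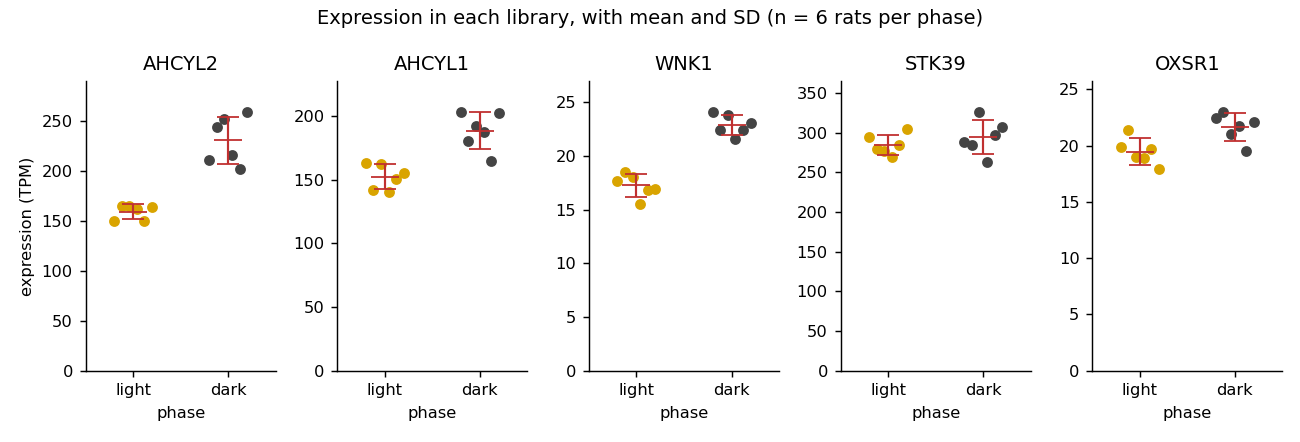
Expression (TPM, a length-normalized transcript abundance, vertical axis from 0) of the 5 genes in each library, with 6 light-phase libraries in yellow and 6 dark-phase libraries in grey and mean and SD in red. AHCYL2, AHCYL1 and WNK1 do not overlap between the phases, whereas STK39 and OXSR1 do.

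AHCYL2 encodes the long form of IRBIT, which carries an extended N-terminal part and binds the bicarbonate cotransporter NBCe1. Its lowest, median and highest expression was 150, 163 and 165 TPM at ZT8 and 202, 230 and 259 TPM at ZT20. The lowest dark-phase library thus lay well above the highest light-phase library. The log2 fold change of AHCYL2 was 0.51 (standard error 0.07, 95% interval 0.37 to 0.66, limma FDR = 0.000278), and 2.30% of the tested genes had a higher one. Among the 1703 genes averaging at least 60 TPM its log2 fold change ranked 30.
The 6 dark-phase libraries of AHCYL2 also lay further apart, with an SD 3.30 times that of the light phase and a coefficient of variation of 10.4% against 4.54%. Replicates 2, 3 and 6 of the dark phase had 244, 252 and 259 TPM, and replicates 1, 4 and 5 had 211, 217 and 202 TPM. The difference in spread was not tested. The AHCYL2 call held in each of the 25 alternative fits, with log2 fold changes of 0.48 to 0.55 and limma FDR values of up to 0.0274.

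AHCYL1 encodes IRBIT itself. Its lowest, median and highest expression was 140, 153 and 163 TPM at ZT8 and 165, 190 and 203 TPM at ZT20. The phases came close to each other, with light-phase replicate 1 at 163 TPM and dark-phase replicate 5 at 165 TPM. For AHCYL1 the log2 fold change was 0.29 (standard error 0.06, 95% interval 0.16 to 0.41, limma FDR = 0.00473), which ranked 87 among the 1703 genes averaging at least 60 TPM. Adjusted for the FPKM:TPM ratio, the AHCYL1 estimate was 0.28 and the call was lost (limma FDR = 0.148).

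Together the IRBIT transcripts amounted to 312 ± 10.5 TPM at ZT8 and 419 ± 33.1 TPM at ZT20 (SD, n = 6 each). The lowest sum of the dark phase, 367 TPM, lay above the highest of the light phase, 328 TPM. AHCYL2 made up 51.2 ± 2.25% of the sum at ZT8 and 55.0 ± 2.41% at ZT20 (SD, n = 6 each), with overlapping phases.

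WNK1 encodes the chloride-sensitive kinase at the head of the cascade. It was expressed at a lower level, with a lowest, median and highest value of 15.6, 17.3 and 18.5 TPM at ZT8 and 21.5, 22.7 and 24.1 TPM at ZT20. The phases were separated by more than the whole range of either. The log2 fold change of WNK1 was 0.38 (standard error 0.04, 95% interval 0.31 to 0.46, limma FDR = 1.79e-05). This was the smallest FDR of the 5 members, although the AHCYL2 estimate was larger, and the WNK1 libraries varied by 6.03% at ZT8 and 4.17% at ZT20 (coefficient of variation). The WNK1 call held in each of the 25 alternative fits, with log2 fold changes of 0.31 to 0.42. The values sum all isoforms of WNK1, and the short isoform without kinase activity known from the kidney cannot be told apart from the full-length one.

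STK39 encodes SPAK, the kinase that phosphorylates NKCC1. It was the most abundant member, with a lowest, median and highest expression of 270, 282 and 304 TPM at ZT8 and 263, 293 and 326 TPM at ZT20. The lowest and the highest of the 12 values both belonged to the dark phase. For STK39 the log2 fold change was 0.03 (standard error 0.05, limma FDR = 0.739), and its 95% interval reached from -0.08 to 0.14. A rise of the size seen in AHCYL1, AHCYL2 or WNK1 lies outside this interval. Without dark-phase replicate 3, which held the highest value, the STK39 estimate was -0.00015.

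OXSR1 encodes OSR1, the closest relative of SPAK, which acts on the same transporters. Its lowest, median and highest expression was 17.9, 19.3 and 21.4 TPM at ZT8 and 19.5, 21.9 and 23.0 TPM at ZT20. In 4 of the 6 dark-phase libraries OXSR1 exceeded every light-phase library. The OXSR1 log2 fold change of 0.13 (standard error 0.05, 95% interval 0.04 to 0.23) did not pass the test over all genes (limma FDR = 0.0617, unadjusted p = 0.0117). The OXSR1 call depended on single choices. The FDR was 0.0187 without dark-phase replicate 5, 0.0217 with TTR left out of TPM and 0.0490 among genes averaging at least 5 TPM, against 0.0187 to 0.364 over all 25 alternatives.

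**Figure D2:**
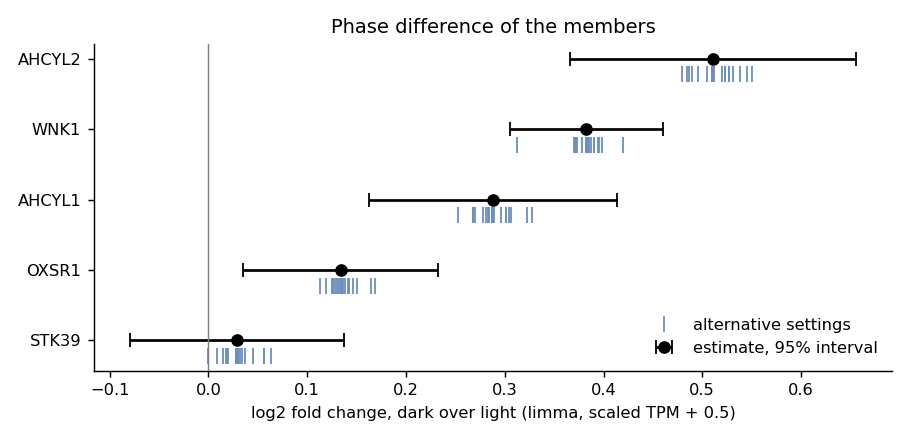
Log2 fold change from the light to the dark phase of the 5 members (horizontal axis), with the estimate and its 95% interval in black and the estimates of the 25 alternative fits as blue ticks. The estimates run from 0.03 in STK39 to 0.51 in AHCYL2, and the interval of STK39 alone includes 0.

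Ordered by mean TPM over all 12 libraries, STK39 (289 TPM) was followed by AHCYL2 (195 TPM), AHCYL1 (170 TPM), OXSR1 (20.6 TPM) and WNK1 (20.1 TPM). TPM is a level per transcript length, so these genes can be compared with one another. STK39 exceeded AHCYL2 in 12 of 12 libraries, and AHCYL1 exceeded OXSR1 in 12 of 12, by 6.61 to 9.15 times. The other neighbours changed places between libraries. AHCYL2 exceeded AHCYL1 in 4 of 6 light-phase and in 6 of 6 dark-phase libraries. OXSR1 exceeded WNK1 in 6 of 6 light-phase libraries but in 2 of 6 dark-phase libraries.

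To compare the members with each other, the ratio of each pair was taken within a library. Such a ratio does not depend on how the libraries were scaled. The 10 ratios were tested with two-sided exact permutation tests, in which the smallest p that 6 libraries against 6 allow is 0.00216, and p-values were adjusted over the 10. In 6 of the 10 the phases differed at an adjusted p below 0.05, and in 4 they did not overlap. The 10 ratios share members, so they are not independent of each other or of the fold changes above. How often ratios of other gene pairs pass this test was not examined. Ratios that hold WNK1 or OXSR1 are no independent results, since both were paired only as genes the study called. The members were chosen with earlier results of these data known, so the other ratios are no independent results either.

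Relative to STK39, AHCYL2, AHCYL1 and WNK1 each rose in the dark phase. For each STK39 transcript there were 0.562 ± 0.0392 AHCYL2 transcripts at ZT8 and 0.786 ± 0.0699 at ZT20 (SD, n = 6 each), a log2 difference of 0.48 (exact permutation p = 0.00216, adjusted p = 0.00541). The highest light-phase ratio was 0.601 and the lowest dark-phase ratio 0.681. WNK1 to STK39 rose from 0.0607 ± 0.00417 to 0.0780 ± 0.00417 (SD, n = 6 each), a log2 difference of 0.36 with the same exact p-values and no overlap. Every ZT20 library exceeded every ZT8 library in 2.34% of the ratios of 12512 tested genes to STK39. For WNK1 this share is no fair measure, because of how WNK1 was paired. AHCYL1 to STK39 rose from 0.535 ± 0.0313 to 0.642 ± 0.0627 (SD, n = 6 each), with overlapping phases (log2 difference 0.26, exact permutation p = 0.00649, adjusted p = 0.0130).

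Relative to OXSR1, the same order was seen for AHCYL2 and WNK1. AHCYL2 to OXSR1 rose from 8.23 ± 0.677 to 10.7 ± 1.01, and WNK1 to OXSR1 from 0.887 ± 0.0497 to 1.06 ± 0.0697 (SD, n = 6 each). Neither ratio overlapped between the phases (log2 differences 0.37 and 0.26, exact permutation p = 0.00216 and adjusted p = 0.00541 for both). A rise without overlap was seen in 1.10% of the ratios of tested genes to OXSR1. For WNK1 this share too is no fair measure. AHCYL1 to OXSR1 differed by 0.15 on the log2 scale and did not pass (exact permutation p = 0.0498, adjusted p = 0.0711). It passed without light-phase replicate 6 or dark-phase replicate 2 (exact permutation test, adjusted p = 0.0397 and 0.0433). Of the kinases of the same step, STK39 to OXSR1 was 14.7 ± 1.26 at ZT8 and 13.6 ± 1.45 at ZT20 (SD, n = 6 each), a log2 difference of -0.11 (standard error 0.08) that did not pass (exact permutation p = 0.208, adjusted p = 0.208).

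Among the 3 members that rose, AHCYL1 rose less than AHCYL2. AHCYL1 to AHCYL2 fell from 0.957 ± 0.0865 to 0.820 ± 0.0821 (SD, n = 6 each), a log2 difference of -0.22 with overlapping phases (exact permutation p = 0.0216, adjusted p = 0.0361). The adjusted p was above 0.05, at 0.0526 to 0.0722, without light-phase replicate 1, 3 or 5 or dark-phase replicate 2, 3, 5 or 6. AHCYL2 to WNK1 (log2 difference 0.12, standard error 0.07, exact permutation p = 0.126, adjusted p = 0.139) and AHCYL1 to WNK1 (-0.10, standard error 0.06, exact permutation p = 0.0974, adjusted p = 0.122) did not pass. Without light-phase replicate 2 the AHCYL1 to WNK1 difference was -0.14 and passed (exact permutation test, adjusted p = 0.0130).

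**Figure D3:**
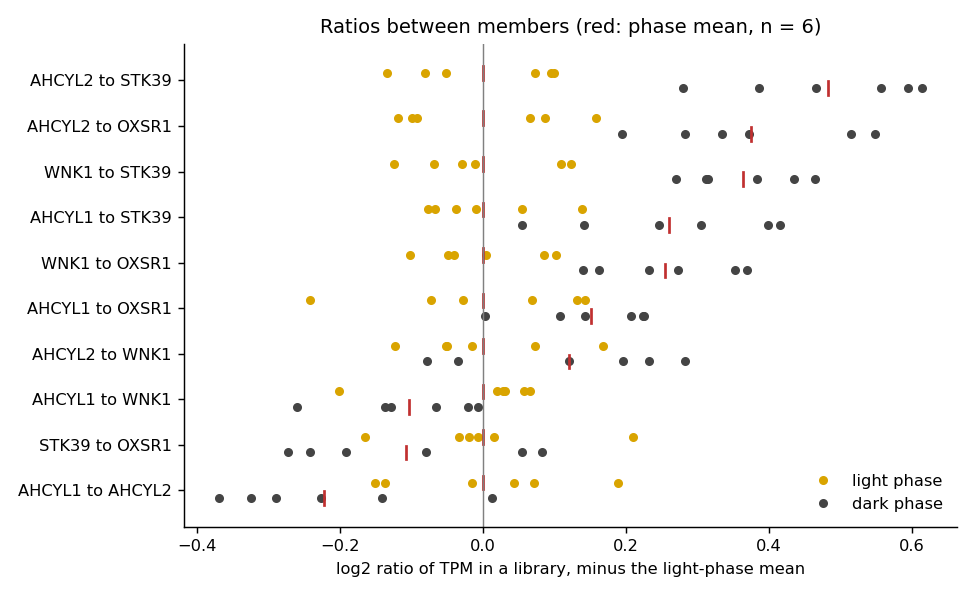
Log2 ratio of TPM between 2 members in each library, minus the light-phase mean of that ratio (horizontal axis), for the 10 pairs, with light-phase libraries in yellow, dark-phase libraries in grey and phase means in red. AHCYL2 to STK39, AHCYL2 to OXSR1, WNK1 to STK39 and WNK1 to OXSR1 do not overlap between the phases.

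The other genes of the network were described from a list of 35 genes, of which 16 could be paired with an identifier. Of the 13 paired by level, limma called 0 toward dark and 4 toward light, where 12.6% of the 1703 genes averaging at least 60 TPM were called higher in the light phase (8.10% of all genes tested). SLC4A10, among these 13 and also called by the study, fell short of a call toward dark here (log2 fold change 0.13, limma FDR = 0.0758). The other 3 (SLC4A7, KLHL2 and SLC12A7) were paired only as genes the study called, and all 3 were called higher in the dark phase here. The median log2 fold change of the 13 was -0.07, beside -0.02 over the genes averaging at least 60 TPM. The list, too, was chosen with earlier results of these data known.

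The largest difference on the light side of the SPAK and OSR1 partners was that of CAB39L (MO25 beta), a scaffold protein that increases the activity of both kinases. CAB39L had 412, 463 and 479 TPM as the lowest, median and highest value at ZT8 and 347, 356 and 384 TPM at ZT20. It was thus 26.5% higher at ZT8, without overlap, as in 3.14% of the tested genes, and in the opposite direction to WNK1 (log2 fold change -0.35 ± 0.05 SE, limma FDR = 0.000574). Adjusted for the FPKM:TPM ratio, the CAB39L estimate was -0.23 and the call was lost (limma FDR = 0.105). Its paralog CAB39 (MO25 alpha) had 73.3 ± 4.99 TPM at ZT8 and 78.2 ± 2.83 TPM at ZT20 (SD, n = 6 each), and was not called (log2 fold change 0.08, limma FDR = 0.187).

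SGK1, a glucocorticoid-induced kinase that phosphorylates WNK kinases, had 108, 150 and 177 TPM at ZT8 and 87.6, 102 and 113 TPM at ZT20 (lowest, median and highest). Only light-phase replicate 4, at 108 TPM, lay within the dark-phase range. SGK1 was 48.4% higher at ZT8 (log2 fold change -0.57 ± 0.10 SE, limma FDR = 0.00173), and the call held in each of the 25 alternative fits, with SGK1 log2 fold changes of -0.92 (adjusted for the FPKM:TPM ratio) to -0.52. KLHL2, an adaptor of the ubiquitin ligase that degrades WNK kinases, rose from 11.2 ± 0.908 to 12.8 ± 0.649 TPM (SD, n = 6 each; limma FDR = 0.0379, log2 fold change 0.17), a call lost in 11 of the 25 alternative fits. TSC22D1, of a family that binds WNK kinases, had 244 ± 17.2 and 242 ± 16.5 TPM (SD, n = 6 each) and was not called (limma FDR = 0.783).

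NKCC1 (SLC12A2), the substrate of SPAK, had 213, 240 and 253 TPM as the lowest, median and highest value at ZT8 and 214, 225 and 248 TPM at ZT20. Its phases overlapped almost completely, and SLC12A2 was not called (log2 fold change -0.07 ± 0.05 SE, limma FDR = 0.342). The potassium-chloride cotransporters moved in opposite directions. KCC1 (SLC12A4) was 12.0% higher at ZT8, at 134 ± 3.70 against 119 ± 6.11 TPM (SD, n = 6 each; limma FDR = 0.0125), whereas KCC4 (SLC12A7) was 16.1% higher in the dark phase, at 34.9 ± 2.16 against 30.1 ± 1.31 TPM (SD, n = 6 each; limma FDR = 0.0172). Both calls were lost on adjustment for the FPKM:TPM ratio (limma FDR = 0.314 for SLC12A4 and 0.135 for SLC12A7), with log2 fold changes of -0.14 in SLC12A4 (from -0.18) and 0.24 in SLC12A7 (from 0.20).

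Among the partners of IRBIT, the inositol trisphosphate receptor ITPR1 had 84.5 ± 5.83 TPM at ZT8 and 89.2 ± 8.18 TPM at ZT20 (SD, n = 6 each) and was not called (log2 fold change 0.06, limma FDR = 0.534). The bicarbonate cotransporter NBCn1 (SLC4A7), at a low level, rose from 7.18 ± 0.586 to 8.69 ± 0.924 TPM (SD, n = 6 each; limma FDR = 0.0392, log2 fold change 0.24), a call lost in 13 of the 25 alternative fits. The 3 catalytic subunits of phosphatase 1, which IRBIT recruits and which reverses SPAK phosphorylation, were not called, with log2 fold changes of -0.07 in PPP1CA and -0.06 in both PPP1CB and PPP1CC (limma FDR = 0.260 to 0.341).
Of the other base transporters, NBCe2 (SLC4A5) was called higher at ZT8 (log2 fold change -0.25, limma FDR = 0.00289), and on adjustment for the FPKM:TPM ratio the SLC4A5 estimate was -0.23 and the call was lost (limma FDR = 0.134). AE2 (SLC4A2) had a log2 fold change of -0.09 (limma FDR = 0.162). SLC4A10 (NCBE) had 0.13 (limma FDR = 0.0758), and passed on TPM as deposited (limma FDR = 0.0416).

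**Figure D4:**
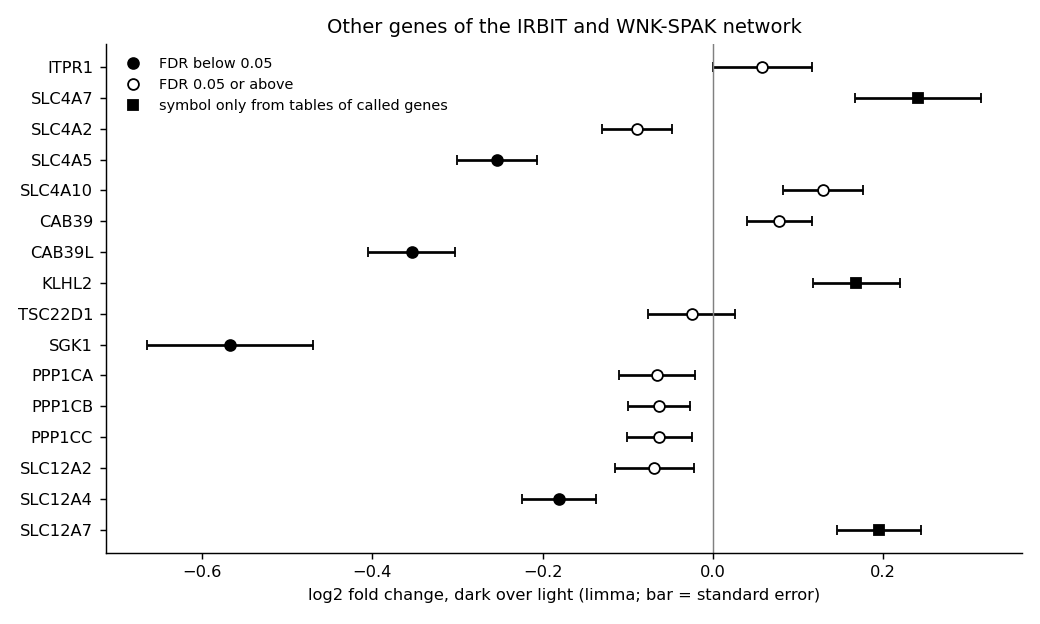
Log2 fold change from the light to the dark phase (horizontal axis, bars are standard errors) of the 16 paired genes of the network besides the 5 members. Filled symbols passed an FDR of 0.05, squares mark genes whose symbol came only from tables of genes the study called, and SGK1 and CAB39L lie farthest to the light side at -0.57 and -0.35.

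To place the members among the other transcripts, the genes whose log2 expression followed each most closely over the 12 libraries were taken from 3053 genes with a symbol and a mean of at least 10 TPM. Pearson's r is given as a description. Over the 12 libraries it includes the difference between the phases. The libraries are shared, and many symbols came from the table of genes that the study called. The genes named, within phases too, had the 3 highest r of the 3053, so part of a high r comes from this choice. No r was tested. WNK1 was followed most closely by the clock transcription factor CLOCK (r = 0.99), then by the microtubule-binding protein CLIP1 and by BCL9L (r = 0.98 for both). CLOCK itself had 10.7 ± 1.01 TPM at ZT8 and 18.5 ± 0.908 TPM at ZT20 (SD, n = 6 each). AHCYL2 was followed by LHFPL2 and SYNJ2BP, with r = 0.98 and 0.96, and by STRIP2 (r = 0.96).
AHCYL1 was followed by ATP2B4, a calcium pump of the plasma membrane (r = 0.99), WDR47 (r = 0.98) and the zinc transporter SLC39A14 (r = 0.97). These 3 genes also came first when the phase means had been removed, with r = 0.97, 0.94 and 0.92, so that they followed AHCYL1 from rat to rat within a phase. In AHCYL2 and WNK1 the genes that came first changed, to TCN2, CHPF and EFHD2 in AHCYL2 (r = 0.87, 0.87 and 0.86) and to TRAF3, ANKS3 and PKD1 in WNK1 (r = 0.87, 0.85 and 0.82).
OXSR1 was followed by ITPRID2 (r = 0.90), the protease ADAM17 (r = 0.89) and the AMPK subunit PRKAB1 (r = 0.88), and within phases by SEC24D, ITPRID2 and HS6ST1 (r = 0.87, 0.80 and 0.79). STK39 had looser likenesses, with CCDC141 (r = 0.83), ACTR10 (r = 0.72) and SLC13A4 (r = 0.71). Within phases STK39 was followed by ELOVL7 (r = 0.90), the kinesin KIF1A (r = 0.83) and CCDC141 (r = 0.82).

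Of 9 epithelial markers all 9 were paired, with a summed level of 264689 to 315157 TPM at ZT8 and 298412 to 322342 TPM at ZT20. TTR alone had 253710 to 304180 TPM at ZT8 and 286835 to 309722 TPM at ZT20, so this sum mostly reflects TTR. Limma called 5 of the 9. CLIC6, OTX2 and KL were called toward dark (log2 fold changes 0.17, 0.24 and 0.29) and AQP1 and SLC4A5 toward light (-0.38 and -0.25). Of all tested genes 17.6% were called in either direction. Of those averaging at least 60 TPM, 9.86% were called toward dark and 12.6% toward light. Markers of other cell types could be checked only in part, since few of them were paired with an identifier. Of 6 fibroblast markers, 2 (DCN and PDGFRA) were paired, with a summed level of 135 to 216 TPM at ZT8 and 145 to 228 TPM at ZT20. Of 6 endothelial and 6 macrophage markers, 1 each was paired, PLVAP with 58.5 to 124 TPM at ZT8 and 56.7 to 96.8 TPM at ZT20 and CD74 with 209 to 392 TPM and 195 to 380 TPM. Of 5 smooth muscle and pericyte markers, 2 were paired, and TAGLN was called higher at ZT8 (log2 fold change -0.73, limma FDR = 0.0270). The summed level of these 2 was 170 to 420 TPM at ZT8 and 165 to 250 TPM at ZT20. HBB (1 of 3 erythrocyte markers paired) had 1406 to 5535 TPM at ZT8 and 839 to 2190 TPM at ZT20. Of the neuronal and astrocytic markers, 0 were paired. The summed levels overlapped between the phases in each of these lists, and none of the paired genes was at 0 in all libraries. Their part in the member values was not tested. Without light-phase replicate 2, which held the highest HBB, TAGLN and RGS5, the log2 fold changes were 0.51 in AHCYL2, 0.25 in AHCYL1, 0.39 in WNK1, 0.01 in STK39 and 0.15 in OXSR1, with 3 members called as before.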

How the data were processed

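The authors aligned paired reads to Rnor_6.0 with STAR 2.7.9a, quantified genes with RSEM 1.3.3 and deposited TPM and FPKM per gene and library, 1 library per rat. The authors tested read counts with DESeq2, which were not used here. TPM carries no counts, so the depth behind a value is unknown and precision rests on the spread between rats. The deposited FPKM values served for alternatives. TPM was scaled by a trimmed mean of ratios to the geometric mean library (30% of ratios and 5% of levels trimmed at each end), transformed to log2(scaled TPM + 0.5), and the 12513 genes averaging 1 TPM or more were fitted with limma 3.58.1 in R 4.3.3 (phase alone, variance trend, Benjamini-Hochberg adjustment, FDR 0.05). The added 0.5 TPM understates changes of low genes. Levels in TPM are as deposited.

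Ratios were tested with exact permutation tests in Python 3.11.15 (numpy 2.4.6, pandas 2.3.3). Symbols were paired with identifiers only through the study's tables, held in part (3700 genes with a symbol). Upstream sequences are from RefSeq (GRCr8), matched by symbol for 5 of 5 members. The members and lists were chosen with earlier results of these data known. Genes named were the members, every paired gene of the network list, and the 3 genes most like each member over all libraries and within phases. The fit and the permutation test were tested on simulated data. The 12 libraries held 0 identical pairs. Alternatives were other scalings, pseudocounts, filters, variance models, weights, FPKM, covariates, a replicate block and leaving out each library.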

Additional observations from a re-analysis of the deposited data

Results flagged for a closer look

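Libraries were examined for values whose distance from the nearest of the other 5 of their phase exceeded 0.625 of their whole range. Of 62 groups of 6 libraries examined (members, ratios and network genes), 1 was marked, where 3.1 would be by chance. It was the ratio of AHCYL1 to WNK1 in light-phase replicate 2, at 7.68 where the other light-phase libraries had 8.95 to 9.23. In this library AHCYL1 had 142 TPM, the second lowest of the light phase, and WNK1 18.5 TPM, the highest of the light phase. The same library held the lowest TTR share (25.4%) and the highest HBB (5535 TPM), and their part in this ratio was not tested.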

How the results depend on the processing

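Depth is not given by TPM, so counting error could not be set beside the spread between rats. AHCYL2 and WNK1 were called in each of the 25 alternative fits. The AHCYL1 call was lost on adjustment for the FPKM:TPM ratio (log2 fold change 0.28), under which 0 network genes were called toward dark and 1 toward light, in place of 3 and 4. OXSR1 passed with TTR left out of TPM (log2 fold change 0.17) and among genes averaging at least 5 TPM (0.13). With each library left out in turn, log2 fold changes ran from 0.11 to 0.16 in OXSR1, passing without dark-phase replicate 5, and from -0.00015 to 0.056 in STK39, reversed without dark-phase replicate 3. The network genes called higher in the dark phase were then 1 to 2, and 1 with no filter on low values. Log2 ratios ran from -0.27 to -0.19 for AHCYL1 to AHCYL2, from -0.14 to -0.072 for AHCYL1 to WNK1 and from 0.10 to 0.18 for AHCYL1 to OXSR1, which passed without light-phase replicate 6 or dark-phase replicate 2. The causes were not tested.

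Replicate numbers share no stated origin. Same-numbered libraries correlated at r = -0.11 to 0.05, and 0 of 6 light-phase libraries were most like the dark-phase library of their number. With the replicate block 1574 genes were called in place of 2204, and 1 network gene was called toward dark. The ratios were then tested by exact sign flips of the 6 differences between same-numbered libraries, with a smallest possible p of 0.03125. AHCYL1 to OXSR1 passed (log2 difference 0.15, exact sign-flip test, adjusted p = 0.0446), at an adjusted p that all passing ratios shared. The block changed no other call of a member or ratio.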
